A study of Homo sapiens with 16 samples.

Results

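The comparison described here was that of LNCaP cells given the antagonist bicalutamide together with dihydrotestosterone (DHT) against cells given only the solvents. It asks which genes stood above or below the androgen-deprived level when both were given. Its members were chosen from the sample labels. They were the 2 libraries of the BIC.DHT group and the 2 libraries of the VEH group, 4 of the 16 libraries in the series, paired by replicate number. LNCaP is an established human prostate cancer line that responds to androgen. All 16 libraries came from this line, cultured for 72 h with 5% fetal bovine serum and then for 48 h with 5% charcoal-stripped serum, which removes most steroid hormone. VEH cells then received ethanol and DMSO, the solvents of DHT and of the drugs, and BIC.DHT cells received 10 nM DHT with 10 µM bicalutamide, both for 48 h. The groups set beside them were DHT (10 nM DHT), BIC.VEH (10 µM bicalutamide), and ENZ.VEH, ENZ.DHT, ARN.VEH and ARN.DHT, in which 10 µM enzalutamide (ENZ) or apalutamide (ARN) was given without or with 10 nM DHT, each with 2 replicates.

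Androgens such as DHT change the transcription of genes near androgen response elements, short motifs in DNA. In prostate epithelium androgen signalling drives the secreted kallikrein proteases, lipid synthesis and cell division, and it lowers the expression of another set of genes. Bicalutamide is a nonsteroidal antiandrogen that competes with androgens. Enzalutamide and apalutamide are later drugs of the same class.

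The 2 genes with the largest differences among those called (adjusted p under 0.05), KLK3 and KLK2, lie next to each other, and the sequence just before their start sites is shown because both are textbook targets of androgen and the windows are closely related. KLK3 encodes prostate-specific antigen and KLK2 a related trypsin-like protease of the prostate. The 250 bases before each start, from RefSeq on GRCh38.p14, are chr19:50854665-50854914 for KLK3 and chr19:50873189-50873438 for KLK2, both on the plus strand and printed 5′ to 3′. Capitals mark a match to AGAACA, a half-site of the androgen response element, or to its reverse complement TGTTCT.
KLK3: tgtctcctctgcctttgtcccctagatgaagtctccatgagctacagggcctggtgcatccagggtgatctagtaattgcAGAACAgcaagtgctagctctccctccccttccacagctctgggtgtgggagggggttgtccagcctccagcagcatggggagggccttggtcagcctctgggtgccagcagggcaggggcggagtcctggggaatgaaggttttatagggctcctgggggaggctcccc
KLK2: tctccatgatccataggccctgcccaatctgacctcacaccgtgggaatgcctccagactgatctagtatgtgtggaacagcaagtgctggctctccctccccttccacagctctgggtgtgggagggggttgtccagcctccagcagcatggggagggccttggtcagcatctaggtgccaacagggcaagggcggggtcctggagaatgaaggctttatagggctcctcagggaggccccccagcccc
The windows shared 178 identical positions over 196 aligned columns (90.8%), with a longest shared run of 80 bases. The KLK3 window held 1 half-site, at -170 from the start, and the KLK2 window held none. Over 15 bases from that site, KLK3 read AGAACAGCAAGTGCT and the closest stretch of KLK2, at -176, read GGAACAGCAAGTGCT, a difference of A1G counted from the 5′ end of the element. The half-site was in the same window of 12.4% of all 35116 RefSeq start sites on either strand. Counted by gene, it was present for 7 of the 35 genes called higher in BIC.DHT that had a listed start (20.0%), for 2 of the 17 called lower (11.8%) and for 14.8% of all 27305 genes. These are descriptions of letters in a short window and not of binding.

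Gene levels were TPM, length-scaled transcript abundance, which the authors estimated with RSEM. In the 4 libraries, 14830 to 15242 genes reached 1 TPM, and transcripts of the mitochondrial genome took 16.6% and 15.9% of TPM in VEH and 20.6% and 17.0% in BIC.DHT. With those transcripts left out, 99 genes were called in place of the 88 below. All 13 luminal prostate markers examined were at 1 TPM or more in all 4 libraries, among them KRT8 at 546 to 769 TPM and FOLH1 at 876 to 989 TPM. Summed levels of 6 basal markers were 6.03 to 9.48 TPM in VEH and 5.33 to 5.46 TPM in BIC.DHT, nearly all of it ITGB4, and KRT17 was listed at 0 in all 4 libraries. The 8 stromal markers summed to 33.7 to 38.2 TPM in VEH and 25.4 to 25.5 TPM in BIC.DHT, mostly COL1A1, with DCN and THY1 listed at 0. The part of these differences in the results below was not tested. The 8 leukocyte markers summed to 1.61 to 6.63 TPM in VEH and 1.65 to 3.62 TPM in BIC.DHT, mostly CD68, with CD3E, MS4A1 and TYROBP among those listed at 0. Outside the 4 libraries, the replicates of ENZ.DHT and ARN.DHT differed most, by a median of 0.327 and 0.342 on the log2(TPM + 1) scale against 0.187 to 0.235 in the other groups, and all groups shared 1 estimate of spread in the tests below.

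BIC.DHT and VEH differed in a small set of genes led by the kallikreins. Of 16636 genes tested, 88 (0.529%) passed an adjusted p of 0.05 in limma's moderated test with replicate number as a block, 49 higher in BIC.DHT (0.295%) and 39 lower (0.234%), and 2116 (12.7%) had an unadjusted p under 0.05. Among the 88, the size of the log2 difference ran from 0.42 to 4.06 with a median of 0.83, and 27 genes were at least 2-fold higher and 6 at least 2-fold lower. The 2 groups' libraries did not overlap for 81 of the 88, as was the case for 35.6% of all genes tested. Genes named below for their rank were taken from those without overlap, so its absence in them follows from the rule. The calls depended on the pairing by replicate number: without that term 2 genes (0.012%) passed, KLK2 and TRPM8, and 784 (4.71%) had an unadjusted p under 0.05. Leaving out 1 of the 4 libraries left 4 to 8 calls, and among the named genes KLK3, KLK4 and TRPM8 passed each time. A fit chosen after seeing the data that left out the ENZ.DHT and ARN.DHT libraries called 631 genes (3.79%; 189 or 1.14% higher, 442 or 2.66% lower), all 88 among them. Over all genes tested the median difference was -0.09, which is the level against which small differences below should be read. Scaling libraries by median ratios gave 92 genes higher and 42 lower, so that 68.7% of calls were higher against 55.7% here.

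Of the called genes, the kallikreins stood furthest above the androgen-deprived level. KLK3 was at 53.0 and 24.0 TPM in VEH and at 845 and 445 TPM in BIC.DHT. The VEH libraries were thus far below both BIC.DHT libraries, and in both groups replicate 1 was the higher. The log2 difference was 4.06 (SE 0.32, adjusted p = 0.0015, limma), or 16.7-fold in mean TPM, and within the pairs it was 3.97 and 4.16. KLK2 was at 4.78 and 3.60 TPM in VEH and at 77.9 and 71.1 TPM in BIC.DHT, again without overlap. Its log2 difference was 3.87 (SE 0.41, adjusted p = 0.0050, and 0.034 without the block), and without 1 of the 4 libraries the adjusted p was 0.057 to 0.092. KLK4, a secreted kallikrein that in enamel degrades matrix proteins, was at 42.0 and 22.1 TPM in VEH and at 239 and 178 TPM in BIC.DHT. Its log2 difference was 2.72 (SE 0.24, adjusted p = 0.0015). None of the kallikreins reached the level seen with DHT alone, which was 4102 and 2422 TPM for KLK3, 494 and 485 TPM for KLK2 and 523 and 407 TPM for KLK4. With bicalutamide and no DHT they were between VEH and BIC.DHT: KLK3 was at 358 and 206 TPM and KLK2 at 36.2 and 33.7 TPM in BIC.VEH. In the test of BIC.VEH against VEH, which uses the same VEH libraries, KLK3 was higher by 2.89 (adjusted p = 0.035), KLK4 by 2.05 (adjusted p = 0.035) and KLK2 by 2.80 (adjusted p = 0.13), and 3 genes were called (0.018%). Without the block limma called 0 genes there (194 at an unadjusted p under 0.05), and the adjusted p was 1 for KLK3, KLK4 and KLK2. BIC.DHT stood above BIC.VEH by 1.17 for KLK3 and 1.07 for KLK2, in a contrast where limma called 0 genes with the block and 0 without it, and 768 (4.62%) had an unadjusted p under 0.05. ENZ.DHT and ARN.DHT also stood above the same VEH libraries, by 2.33 and 2.26 for KLK3 and by 2.21 and 1.91 for KLK2. For KLK4 the differences were 1.57 and 1.27, and none of the 3 genes was called in either group. Reads shared between KLK3 and KLK2, which are close in sequence, could move values between them.

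**Figure D1:**
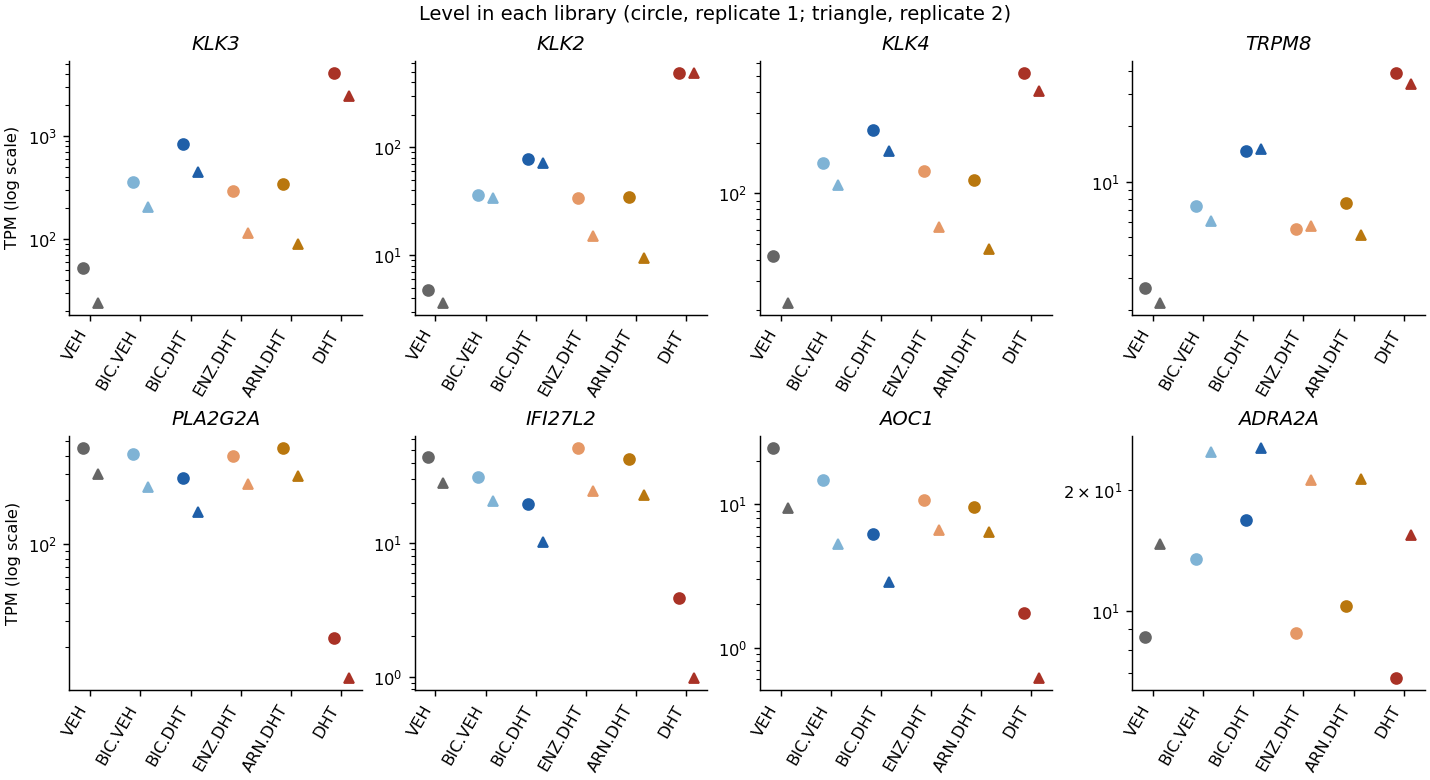
TPM in each library on a log scale for 8 genes in 6 groups of 2 libraries, circles for replicate 1 and triangles for replicate 2. KLK3, KLK2, KLK4 and TRPM8 lie in BIC.DHT between VEH and DHT, PLA2G2A, IFI27L2 and AOC1 lie in BIC.DHT below VEH and above DHT for the same replicate number, and ADRA2A is highest in BIC.VEH and BIC.DHT for each replicate number.

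Of the 6 called genes with the highest differences, 5 lay together on chromosome 19 (GRCh38.p14). C19orf48, listed in RefSeq as C19orf48P (19, 50797704 to 50804594), is followed by KLK3 (50854915 to 50860764), KLK2 (50873439 to 50880567), the pseudogene KLKP1 (50882096 to 50896398) and KLK4 (50906351 to 50911395), a span of 113.7 kb. C19orf48 was at 56.8 and 61.8 TPM in VEH and at 174 and 215 TPM in BIC.DHT (log2 difference 1.69, SE 0.23, adjusted p = 0.018). KLKP1 was at 2.06 and 1.00 TPM in VEH and at 8.86 and 6.84 TPM in BIC.DHT (1.83, SE 0.29, adjusted p = 0.036). Both were higher in BIC.DHT in each pair without overlap. ENZ.DHT and ARN.DHT stood above VEH by 0.77 and 0.48 for C19orf48 and by 1.37 and 1.47 for KLKP1, and neither gene was called there. There were 8 tested genes with their midpoint within 200 kb of the KLK3 start, and the 3 that were not called were CLEC11A at -0.16, LINC01869 at 0.58 and KLK15 at 0.89. Of all genes tested, 0.529% were called. The window was centred on the called gene with the highest difference, so the number called in it is partly built in. KLKP1 and the kallikreins are related in sequence, and C19orf48 holds 3 annotated snoRNAs (SNORD88A, SNORD88B and SNORD88C).

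**Figure D2:**
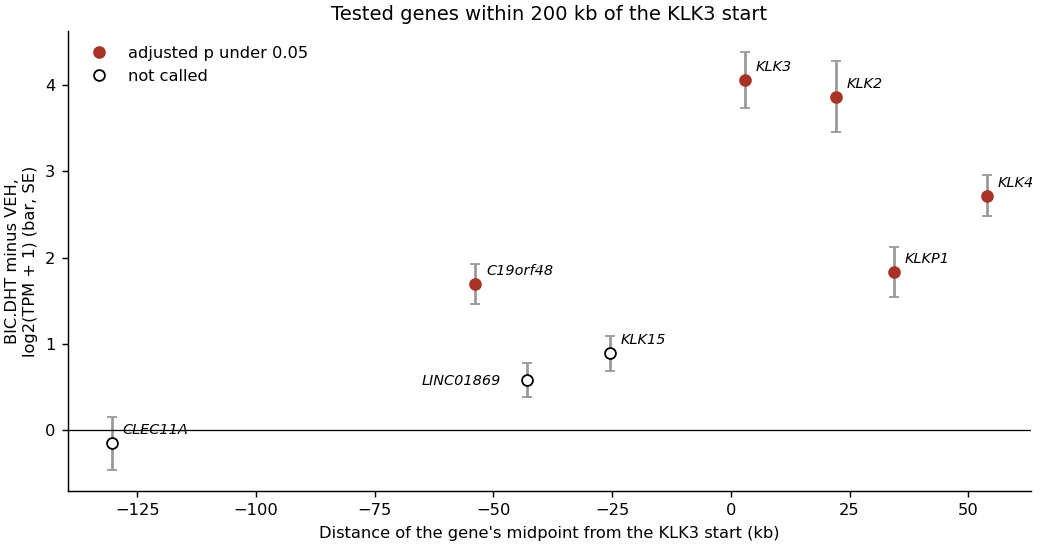
Log2 difference of BIC.DHT minus VEH with its SE, on the log2(TPM + 1) scale, for the 8 tested genes within 200 kb of the KLK3 start, by distance of the gene's midpoint from that start in kb. The 5 called genes (filled) range from 1.69 to 4.06 and the 3 others (open) from -0.16 to 0.89.

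Outside that cluster the called genes highest above VEH included a channel, a transcription cofactor and a transporter. TRPM8, the cold-sensing calcium channel of prostate epithelium (chromosome 2, 233917373 to 234019522), was at 2.64 and 2.18 TPM in VEH and at 14.7 and 15.1 TPM in BIC.DHT. The replicates of each group were close together, and the log2 difference was 2.22 (SE 0.19, adjusted p = 0.0015, and 0.032 without the block). EAF2, an elongation factor partner, was at 4.75 and 5.17 TPM in VEH and at 16.3 and 16.3 TPM in BIC.DHT (1.54, SE 0.24, adjusted p = 0.036). SLC45A3, the prostein transporter, was at 23.3 and 20.7 TPM in VEH and at 49.7 and 63.6 TPM in BIC.DHT (1.32, SE 0.12, adjusted p = 0.0022). MALL, a membrane raft protein, was at 5.43 and 3.39 TPM in VEH and at 13.0 and 9.99 TPM in BIC.DHT (1.23, SE 0.14, adjusted p = 0.0085). Against the same VEH libraries, BIC.VEH was higher by 1.18 for TRPM8, 1.16 for EAF2, 1.02 for SLC45A3 and 0.74 for MALL. Of these only SLC45A3 was called there (adjusted p = 0.035, limma with the block). ENZ.DHT and ARN.DHT stood above VEH by 0.96 and 1.10 for TRPM8 and by 0.81 and 0.86 for EAF2. For SLC45A3 the differences were 0.46 and 0.21 and for MALL 0.44 and 0.45, and none was called. How much of each difference bicalutamide alone accounts for was not tested. All 4 stayed below their levels with DHT alone, which for TRPM8 were 39.1 and 33.8 TPM. CRYM, a thyroid hormone binding protein, was different in order: it was at 5.14 and 4.03 TPM in VEH, 14.6 and 8.75 TPM in DHT and 19.0 and 10.7 TPM in BIC.DHT. It was higher in BIC.DHT than in VEH by 1.46 (SE 0.26, adjusted p = 0.039), while BIC.DHT and DHT differed by 0.31 (adjusted p = 0.49, limma). CRYM was above VEH by 0.94 in ENZ.DHT and by 0.95 in ARN.DHT, and was called in neither.

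The called genes furthest below VEH fell by less than the kallikreins rose. AOC1, a diamine oxidase that breaks down histamine and putrescine, was at 24.9 and 9.38 TPM in VEH and at 6.20 and 2.86 TPM in BIC.DHT. It was lower in both pairs and the groups did not overlap, with a log2 difference of -1.64 (SE 0.24, adjusted p = 0.027). IFI27L2, of the interferon-inducible IFI27 family, was at 44.0 and 28.0 TPM in VEH and at 19.5 and 10.2 TPM in BIC.DHT (-1.26, SE 0.16, adjusted p = 0.015). DHT alone brought both lower still, to 1.75 and 0.61 TPM for AOC1 and 3.89 and 0.97 TPM for IFI27L2. ENZ.DHT and ARN.DHT differed from VEH by -0.80 and -0.89 for AOC1 and by 0.02 and -0.17 for IFI27L2, none called. SELENBP1, a selenium-binding methanethiol oxidase and the most abundant of these genes, was at 5274 and 3115 TPM in VEH and at 2853 and 1809.8 TPM in BIC.DHT (-0.83, SE 0.16, adjusted p = 0.048). UPK2, a uroplakin of the urothelial surface, went from 10.1 and 5.83 TPM to 4.84 and 2.22 TPM (-1.004, SE 0.16, adjusted p = 0.034). The remaining genes of this group were TMPRSS6, a membrane serine protease that acts on iron regulation (-0.90), RBP5, a retinol-binding protein (-0.89), the homeobox factor IRX3 (-0.81), LINC02614, a long non-coding RNA (-0.80), and SUSD2, a sushi domain membrane protein (-0.80). Their adjusted p-values ran from 0.018 for LINC02614 to 0.041 for TMPRSS6. For each of these the BIC.DHT libraries lay below both VEH libraries, as the naming rule required, and above DHT of the same replicate number. Over these genes BIC.VEH minus VEH ran from -0.75 for RBP5 to -0.36 for IRX3, and none was called there. RBP5 was at 3.37 and 3.27 TPM in BIC.VEH, which overlaps its 2.15 and 3.85 TPM in BIC.DHT. SMIM11A met the same rule at 15.2 and 13.5 TPM in VEH and at 2.34 and 2.31 TPM in BIC.DHT (-2.20, SE 0.37, adjusted p = 0.037). Its value is uncertain because its near-identical copy SMIM11B went from 7.12 and 12.6 TPM to 18.3 and 24.1 TPM. Added together, the copies were at 22.3 and 26.1 TPM in VEH and at 20.6 and 26.4 TPM in BIC.DHT, which overlap. AOC1, TMPRSS6, RBP5 and LINC02614 share positions with further RefSeq genes, and the sources used here do not give the strand setting of the counting.

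**Figure D3:**
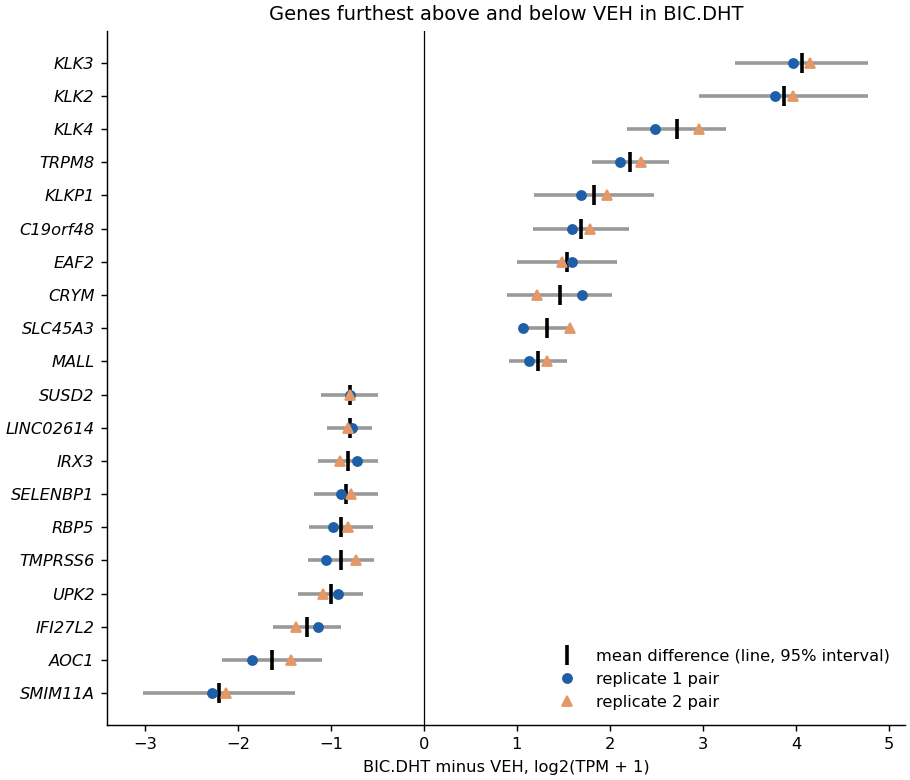
Log2 difference of BIC.DHT minus VEH on the log2(TPM + 1) scale for the 10 genes furthest above and the 10 furthest below VEH among called genes with a mean of 5 TPM or more in either group. Black ticks are means, grey lines 95% intervals, circles the replicate 1 pair and triangles the replicate 2 pair. The 20 genes were chosen by adjusted p and by no overlap between the groups, so intervals clear of 0 follow from the choice.

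Widely used readouts of androgen action differed in how far they stood from VEH. TMPRSS2, a membrane serine protease, was at 46.4 and 31.1 TPM in VEH and at 76.1 and 54.6 TPM in BIC.DHT, against 429 and 279 TPM with DHT alone. It was higher in BIC.DHT by 0.75 (SE 0.11, adjusted p = 0.027). In BIC.VEH it was at 67.8 and 47.3 TPM, above the same VEH libraries by 0.56, and was not called there. FKBP5, a co-chaperone of steroid receptors, was at 12.0 and 13.5 TPM in VEH and at 16.8 and 20.1 TPM in BIC.DHT. The groups did not overlap, but the difference of 0.50 did not pass (SE 0.12, adjusted p = 0.12). DHT alone gave 81.4 and 92.8 TPM of FKBP5. Among genes that DHT lowers, PLA2G2A, a secreted phospholipase, was at 448 and 301 TPM in VEH and at 284 and 166 TPM in BIC.DHT, below both VEH libraries. Its log2 difference was -0.76 (SE 0.09, adjusted p = 0.010), far from the 23.1 and 12.3 TPM of DHT alone. UGT2B17, which glucuronidates androgens, was at 289 and 327 TPM in VEH and at 178 and 248 TPM in BIC.DHT, a difference of -0.54 that did not pass (SE 0.18, adjusted p = 0.23). In the fit without the ENZ.DHT and ARN.DHT libraries, the adjusted p for FKBP5 was 0.010.

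An androgen response was measured in libraries that BIC.DHT against VEH does not use, as DHT against the mean of ENZ.VEH and ARN.VEH, and genes were grouped by it. In that contrast 6053 genes (36.4%) were called, 2395 higher with DHT (14.4%) and 3658 lower (22%). Of the 2395 genes higher with DHT, 44 (1.84%) were called higher in BIC.DHT and 0 lower by limma with the block (490 and 22 at an unadjusted p under 0.05). Their median difference was 0.11. Of all genes tested, 0.295% were called higher and 0.234% lower. Of the 3658 lower with DHT, 35 (0.957%) were called lower and 2 (0.0547%) higher, with a median of -0.22. At an unadjusted p under 0.05 there were 993 lower and 12 higher. The 10583 genes not called with DHT gave 3 higher (0.0283%) and 4 lower (0.0378%), with a median of -0.08. At an unadjusted p under 0.05 they gave 107 higher and 492 lower. The median difference between BIC.DHT and VEH moved in steps with the size of the androgen response. It was -0.56 over 64 genes with a response of -3 to -2, -0.24 over 2182 genes at -1 to -0.5, -0.02 over 5210 genes at 0 to 0.5, 0.36 over 453 genes at 1 to 2 and 0.77 over 77 genes at 2 to 3. The outermost bins held few genes, 7 below -3 with a median of -1.26 and 18 above 3 with a median of 1.12. Both pairs gave the same sign in every bin, with the widest gap below -3 (-1.85 and -0.86). In the 77 genes at 2 to 3, 68 were above 0 in both pairs, against 3135 (18.8%) of all 16636 genes. Over these 77 genes the median against VEH was 0.33 for BIC.VEH, -0.02 for ENZ.DHT and 0.01 for ARN.DHT. In the same order it was 0.50, 0.44 and 0.39 over the 18 genes above 3. It was 0.17, -0.08 and -0.02 over the 453 genes at 1 to 2. Among genes lower with DHT it was -0.23, -0.29 and -0.27 at -3 to -2, and -0.21, -0.21 and -0.89 below -3. Over all genes tested these medians were -0.02, -0.12 and -0.10. These values share the VEH libraries and are given side by side without a test.

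**Figure D4:**
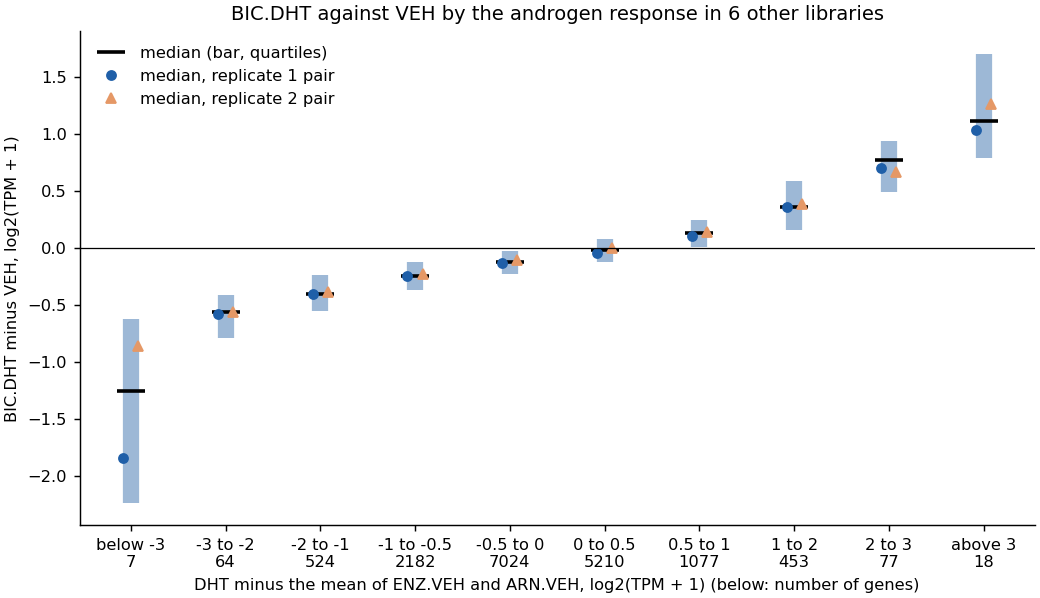
Difference of BIC.DHT minus VEH (vertical axis, log2(TPM + 1)) in 10 bins of the androgen response measured in other libraries (horizontal axis, DHT minus the mean of ENZ.VEH and ARN.VEH, with the number of genes under each bin). Black ticks are medians, bars quartiles, and circles and triangles the medians of the replicate 1 and replicate 2 pairs, running from -1.26 below -3 to 1.12 above 3.

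Lists of androgen targets held called genes in both directions. Of 42 tested members of a list of androgen-induced genes, 14 were called higher and 0 lower in BIC.DHT (33.3%, against 0.529% of all genes), and 31 were above VEH in both pairs, as were 3135 (18.8%) of all genes. The lists here and below were written with earlier results of these data known, so a share above that of all genes may be partly built in. The list median was 0.44, against -0.09 over all genes, and members ran from -0.91 for SGK1, a kinase also driven by glucocorticoids, to 4.06 for KLK3. The same list had medians of 1.81 in DHT, 0.30 in BIC.VEH, -0.02 in ENZ.DHT and -0.01 in ARN.DHT against VEH. At an unadjusted p under 0.05 there were 22 higher and 1 lower, and without the block 2 members passed. Of 29 tested members of a list of androgen-repressed genes, 3 were called lower (IFI27L2, PLA2G2A and DDC) and 2 higher (TMEFF2 and ADRA2A), with a median of -0.25 and with 10 lower and 5 higher at an unadjusted p under 0.05. Whether the lists differ in the share of members that changed was not tested. Both members that rose went against the name of the list. TMEFF2, a membrane protein with follistatin domains, rose from 12.4 and 13.2 TPM to 25.4 and 32.7 TPM (1.11, SE 0.19, adjusted p = 0.037) and was also higher with DHT, at 37.3 and 48.2 TPM. DDC, which makes dopamine and serotonin from their precursors, was at 840 and 568 TPM in VEH and at 662 and 404 TPM in BIC.DHT. Its groups overlapped, but it was lower in both pairs (-0.42, SE 0.07, adjusted p = 0.036) and DHT alone brought it to 110.2 and 72.4 TPM.

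Of the lipid synthesis genes, 2 elongases were called and FASN and SCD were not. FASN, the fatty acid synthase, differed by -0.01 on the log2 scale (95% interval -0.28 to 0.26, adjusted p = 0.99, limma) and SCD, the stearoyl-CoA desaturase, by 0.14 (-0.40 to 0.69, adjusted p = 0.84). For FASN, the VEH libraries at 301 and 246 TPM enclosed those of BIC.DHT at 289 and 254 TPM, and the sign of its difference changed with the scaling. With DHT alone FASN was at 659 and 545 TPM. Of 25 sterol synthesis genes limma called 0 with or without the block, with 8 at an unadjusted p under 0.05 (6 higher and 2 lower, against 12.7% of all genes), and 20 lay above the median of all genes (list median 0.12). In the fit without the ENZ.DHT and ARN.DHT libraries, 5 of the 25 were called higher and 1 lower. That fit called 1.14% of all genes higher and 2.66% lower. Of 25 fatty acid synthesis genes 2 were called higher (median -0.05). Both lengthen fatty acid chains. ELOVL7 was at 9.82 and 10.4 TPM in VEH and at 18.6 and 24.3 TPM in BIC.DHT (1.00, SE 0.15, adjusted p = 0.031), and ELOVL5 was at 115 and 101 TPM in VEH and at 183 and 166 TPM in BIC.DHT (0.69, SE 0.07, adjusted p = 0.0050). Neither overlapped between the groups.

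Cell cycle genes stood above VEH in both pairs, but few passed the test singly. Of 58 genes of G2 and M phase, 56 were above VEH in both pairs, against 18.8% of all genes. Of the 58, 1 was called (1.72%, against 0.529% of all genes), and the median was 0.77. At an unadjusted p under 0.05 there were 48 of the 58, against 12.7% of all genes. Within the pairs the medians were 0.91 and 0.58. Of 56 S phase genes, 48 were above VEH in both pairs and 1 was called (1.79%), with a median of 0.37. At an unadjusted p under 0.05 there were 29 of the 56. The levels also differed by replicate number: the G2 and M genes summed to 555 and 1221 TPM in VEH and to 923 and 1753 TPM in BIC.DHT. Replicate 2 was the higher in both groups, so the groups overlapped while BIC.DHT was the higher in each pair. In bulk RNA, more cells in a phase and more RNA per cell cannot be told apart. The called genes were CCNA2, cyclin A2, at 2.75 and 9.75 TPM in VEH and at 6.63 and 14.5 TPM in BIC.DHT (0.77, SE 0.13, adjusted p = 0.037), and PCNA, the sliding clamp of DNA polymerase, at 44.3 and 87.0 TPM in VEH and at 70.3 and 116.35 TPM in BIC.DHT (0.53, SE 0.09, adjusted p = 0.037). Without the block both had an adjusted p of 1. MKI67, which encodes the proliferation marker Ki-67, was at 2.18 and 9.28 TPM in VEH and at 6.07 and 14.8 TPM in BIC.DHT, and its difference of 0.89 did not pass (SE 0.29, adjusted p = 0.24). The replication helicase subunit MCM2 was at 17.3 and 26.0 TPM in VEH and at 22.2 and 37.6 TPM in BIC.DHT (0.43, SE 0.19, adjusted p = 0.39). For comparison, the G2 and M list had a median of 1.31 in DHT, 0.22 in BIC.VEH, -0.19 in ENZ.DHT and -0.01 in ARN.DHT against VEH. In the fit without the ENZ.DHT and ARN.DHT libraries, 10 of the 58 G2 and M genes and 10 of the 56 S phase genes were called higher. That fit called 1.14% of all genes higher. The 18 genes of G1 control had a median of -0.03, and limma called 0 with or without the block, with 2 at an unadjusted p under 0.05.

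**Figure D5:**
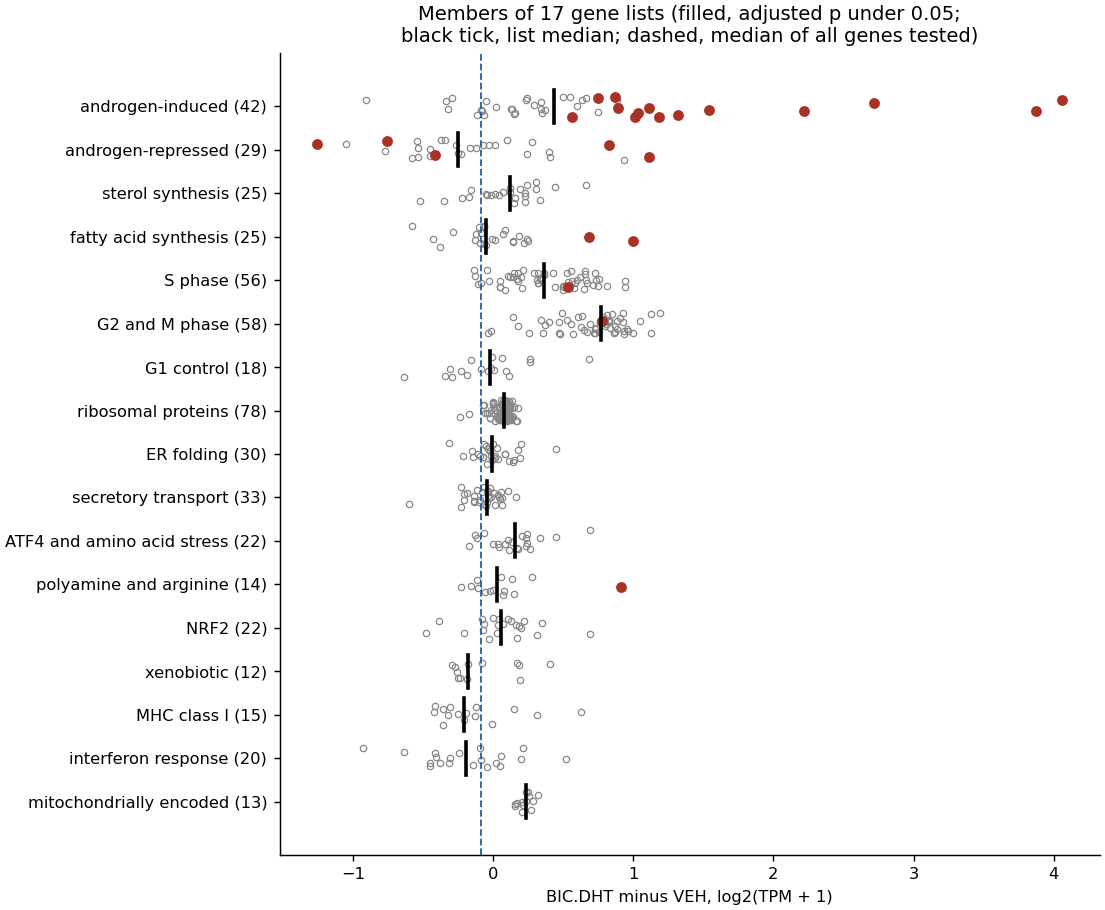
Log2 difference of BIC.DHT minus VEH on the log2(TPM + 1) scale for the tested members of 17 gene lists (number tested in brackets). Filled points have an adjusted p under 0.05, black ticks are list medians and the dashed line is the median over all genes tested, -0.09. The medians furthest to the right are those of G2 and M phase (0.77), androgen-induced (0.44) and S phase genes (0.37).

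Outside androgen targets, lipid synthesis and the cell cycle, few list members were called. ARG2, the mitochondrial arginase that makes ornithine, was the 1 of 14 polyamine and arginine genes to be called. It was at 41.4 and 69.3 TPM in VEH, 76.0 and 136 TPM in BIC.DHT and 72.6 and 132 TPM in BIC.VEH (BIC.DHT against VEH 0.91, SE 0.14, adjusted p = 0.036). BIC.DHT and BIC.VEH thus overlapped and differed by 0.06. Members of the ribosomal protein list ran from -0.24 to 0.18 (median 0.08, 78 tested), and the 13 mitochondrially encoded genes from 0.16 to 0.32 (median 0.23). Of these, 55 of the 78 and all 13 were above VEH in both pairs, against 18.8% of all genes. Median differences were -0.01 for 30 genes of protein folding in the endoplasmic reticulum, -0.05 for 33 of secretory transport, 0.15 for 22 of the ATF4 and amino acid stress response, 0.05 for 22 of the NRF2 response and -0.18 for 12 of xenobiotic metabolism. They were -0.21 for 15 MHC class I genes, -0.20 for 20 interferon response genes and -0.21 for 9 early stress genes. Limma called 0 members of these 10 lists with the block and 0 without it, and at an unadjusted p under 0.05, which 12.7% of all genes had, there were 5 of the 15 MHC class I genes (4 lower), 4 of the 20 interferon response genes (3 lower), 4 of the 9 early stress genes (4 lower) and 0 to 2 members of each other list. The fit without the ENZ.DHT and ARN.DHT libraries called 2.66% of all genes lower and 1.14% higher. In it, 4 of 15 MHC class I, 2 of 20 interferon response, 1 of 9 early stress and 1 of 33 secretory transport genes were called lower. Of 30 protein folding genes, 1 was called higher. The medians for fatty acid synthesis, G1 control, protein folding and secretory transport were below 0 here and above 0 under median-ratio scaling. Of 7 neuronal genes 1 was called (DDC, median -0.20), and of the 13 luminal markers 3 were called, KLK3 and TRPM8 among them (median -0.14).

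ADRA2A and PTGFR rose in BIC.DHT without an androgen response in the other libraries. ADRA2A, the alpha-2A adrenergic receptor (chromosome 10, 111077029 to 111080907), was at 8.61 and 14.7 TPM in VEH and at 16.9 and 25.5 TPM in BIC.DHT, higher in both pairs (0.83, SE 0.15, adjusted p = 0.043, and 1 without the block). PTGFR, the prostaglandin F receptor (chromosome 1, 78490974 to 78540701), was at 10.4 and 16.0 TPM in VEH and at 16.8 and 27.4 TPM in BIC.DHT (0.69, SE 0.12, adjusted p = 0.037, and 1 without the block). Bicalutamide without DHT gave levels close to these, 13.5 and 24.8 TPM for ADRA2A and 16.2 and 27.5 TPM for PTGFR. DHT alone did not: ADRA2A was at 6.80 and 15.5 TPM and PTGFR at 9.67 and 17.0 TPM. In the test of BIC.DHT against DHT, ADRA2A was higher by 0.94 (adjusted p = 0.0027) and PTGFR by 0.70 (adjusted p = 0.0039), in a contrast with 2216 calls (13.3%). Without the block that contrast had 521 calls, and the adjusted p was 0.51 for ADRA2A and 0.58 for PTGFR. Their response to DHT against ENZ.VEH and ARN.VEH was -0.17 and -0.19. Neither was called there, which the rule that named them required.

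The level left by bicalutamide with DHT was compared with that left by enzalutamide and apalutamide at the same dose, 10 µM, and time, 48 h. BIC.DHT against the mean of ENZ.DHT and ARN.DHT gave 48 called genes (0.289%), 36 higher (0.216%) and 12 lower (0.0721%). Without the block limma called 0, and 751 genes (4.51%) had an unadjusted p under 0.05. Single libraries decided the count: it was 0 without BIC.DHT replicate 1 (1059 at an unadjusted p under 0.05), 1 without BIC.DHT replicate 2, 9 without ENZ.DHT replicate 1, 16 and 27 without ARN.DHT replicates 1 and 2, and 204 without ENZ.DHT replicate 2. KLK3 was at 296 and 115 TPM in ENZ.DHT and at 340 and 90.4 TPM in ARN.DHT. Both BIC.DHT libraries were above these 4, by 1.76 on the log2 scale (SE 0.28, adjusted p = 0.040). TRPM8 was at 5.52 and 5.73 TPM in ENZ.DHT and at 7.61 and 5.15 TPM in ARN.DHT, also without overlap with BIC.DHT, which was higher by 1.19 (SE 0.16, adjusted p = 0.025). KLK2 was higher by 1.81 (95% interval 1.03 to 2.60), with an adjusted p of 0.059 that did not pass. KLK4, SLC45A3, MALL, TMPRSS2, FKBP5, ELOVL7, ELOVL5, PCNA and CCNA2 were called higher, by 0.50 for PCNA to 1.30 for KLK4. PLA2G2A (-0.65), IFI27L2 (-1.18), LINC02614 (-0.70) and DDC (-0.41) were called lower. Most of these genes were named for their difference from VEH in the same BIC.DHT libraries, which favours a difference in the same direction here. IFI27L2 was at 51.8 and 24.5 TPM in ENZ.DHT and at 42.5 and 22.8 TPM in ARN.DHT, all 4 above both BIC.DHT libraries. A difference did not pass for AOC1 (-0.79, interval -1.26 to -0.33), SELENBP1 (-0.40, -0.70 to -0.10), KLKP1 (0.41, -0.15 to 0.97), ADRA2A (0.51, 0.22 to 0.79) and UGT2B17 (-0.14, -0.49 to 0.20). Against VEH, ENZ.DHT had 1 called gene (6.01e-03%) and ARN.DHT 0 by limma with the block, with 2391 (14.4%) and 1439 (8.65%) at an unadjusted p under 0.05. Through the shared estimate of spread, the wider spread of their replicates enters these counts and that of BIC.DHT against VEH alike.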

How the data were processed

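RNA from 16 LNCaP cultures (8 groups of 2 biological replicates) was prepared as stranded, polyA-selected libraries. The authors checked reads with FastQC 0.11.9, trimmed them with Trim Galore 0.6.5, aligned them to GRCh38/hg38 with STAR 2.7.2b and estimated gene levels with RSEM 1.3.3, versions per the submitters' processing notes. The deposited values are TPM per gene symbol, which keep no depth, are scaled to a fixed total and share reads between near-identical genes by a model.

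Genes with 1 TPM or more in 2 or more libraries were tested as log2(TPM + 1), which understates changes at low levels. The model held 8 group means and the replicate number as a block. It used limma 3.58.1 (R 4.3.3) with its trend option over the 16 libraries together. A check on simulated data gave all groups the same spread, so it does not cover the wider spread of ENZ.DHT and ARN.DHT. A gene was called at a Benjamini-Hochberg adjusted p under 0.05. The labels do not say what a replicate number shares. Deviations of same-numbered libraries from their group means correlated across genes at 0.43 between BIC.DHT and VEH and at 0.20 to 0.64 over 28 pairs of groups. P-values with the block measure the spread between these cultures that is left after the replicate term, pooled over the 8 groups.

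Genes were named by rule: the 10 highest and 10 lowest called genes with a mean of 5 TPM or more and no overlap, 13 genes set by name, up to 3 called members for each of 24 hand-written lists, and called genes without an androgen response. Markers, list extremes, neighbours of KLK3 and SMIM11B were named after their values were seen. Members and lists were chosen with earlier results of these data known. Some results that met the rule are not reported here. Positions and promoter windows came from RefSeq on GRCh38.p14 (90 of 97 called or named genes had a position), and windows were aligned with Biopython 1.88. Alternatives were no block, a pseudocount of 0.1, no filter, a mean of 5 TPM, median-ratio scaling, mitochondrial genes left out, the 4 libraries alone and each replicate left out.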

Additional observations from a re-analysis of the deposited data

Results flagged for a closer look

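For 15 genes named above, the level in BIC.DHT differed from the mean of ENZ.DHT and ARN.DHT by a test of the difference itself (limma, adjusted p under 0.05, with the block). Of all 16636 genes, 48 (0.289%) were called in that contrast. Most of the 15 were named for their difference from VEH in the same BIC.DHT libraries. That choice favours a difference in the same direction here. On the log2(TPM + 1) scale the difference was 1.76 for KLK3, 1.30 for KLK4, 1.19 for TRPM8, 0.98 for SLC45A3, 0.78 for MALL, 0.72 for TMPRSS2, 0.66 for FKBP5, 0.79 for ELOVL7, 0.62 for ELOVL5, 0.50 for PCNA and 0.72 for CCNA2, all higher in BIC.DHT. It was -1.18 for IFI27L2, -0.70 for LINC02614, -0.65 for PLA2G2A and -0.41 for DDC, all lower in BIC.DHT. FKBP5 is the one gene of these that was not called against VEH. None of the 15 passed in this contrast without the block, where 0 of all genes did, 751 had an unadjusted p under 0.05 and the adjusted p-values of the 15 ran from 0.32 to 0.89.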

How the results depend on the processing

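The count of genes called in BIC.DHT against VEH (88, with 49 higher and 39 lower) was 79 with a pseudocount of 0.1, 80 at a mean of 5 TPM or more, 99 without mitochondrial genes and 134 with median-ratio scaling. It was 39 (24 higher, 15 lower) with no filter on low values, 2 (2 higher, 0 lower) with no replicate block, 0 (0 higher, 0 lower; 3820 at an unadjusted p under 0.05) in the 4 libraries alone with the replicate block, and 631 (189 higher, 442 lower) with the ENZ.DHT and ARN.DHT libraries left out, an alternative added after seeing the data. Leaving out 1 of the 4 libraries gave 4 to 8 calls (4 to 6 higher, 0 to 2 lower). DHT against the mean of ENZ.VEH and ARN.VEH, 6053 calls, gave 2897 with no replicate block and 3786 to 5644 without 1 library, with 3786 and 3942 without DHT replicates 1 and 2. BIC.DHT against the mean of ENZ.DHT and ARN.DHT, 48 calls, gave 0 with no replicate block, 11 with a pseudocount of 0.1, 25 with no filter, 76 at a mean of 5 TPM or more, 92 with median-ratio scaling and 0 to 204 without 1 library. Where 1 library was left out, the lone sample was assumed to vary like the other groups. The replicate block changed the call of all 88 genes but KLK2 and TRPM8, and TRPM8 kept its call in every alternative but the 4 libraries alone (adjusted p = 0.16, limma). The causes were not tested, and TPM does not show depth. Of the 41 genes that met the naming rule only FASN changed sign, to 0.0934 with median-ratio scaling and 0.0343 without mitochondrial genes, and it ran from -0.12 to 0.10 without 1 library.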
